A study of Mus musculus with 3 samples.

Results

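The genes described here encode 10 carriers and carrier subunits that move amino acids across the plasma membrane: Slc7a5, Slc3a2, Slc1a5, Slc1a4, Slc7a1, Slc7a6, Slc7a11, Slc38a1, Slc38a2 and Slc43a1. They were taken by gene symbol, and every probe set annotated to a listed symbol was kept, which gave 20 of 34945 named probe sets and 10 of 18193 named genes. The cells were memory phenotype CD4 T cells, helper T cells with the phenotype of memory cells, sorted from the spleens of BALB/c mice. For 10 weeks the mice ate a normal diet (ND) or, in the HFD group, food with 60 kcal% fat. RNA was measured on 3 Affymetrix arrays, 1 for ND and 2 for HFD. The labels give no age or sex, no number of mice per sample and no statement that the HFD samples came from separate mice, so the spread between the HFD arrays may be technical. The members were chosen with the difference between HFD and ND known. Their values are therefore a description, and no test of that difference is given for them.

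A T cell that is activated has to import amino acids faster than it can make them, and it does so by placing a small set of carriers on its surface. SLC7A5 (LAT1) pairs with the SLC3A2 (CD98) heavy chain and exchanges intracellular glutamine for leucine and other large neutral amino acids. SLC1A5 (ASCT2) and the SLC38 carriers bring in glutamine and other small neutral amino acids, and SLC7A1 (CAT-1) brings in arginine and lysine. Leucine and arginine in turn feed the lysosomal machinery that switches on the growth kinase complex mTORC1. When amino acids run short, the kinase GCN2 and the transcription factor ATF4 raise transcription of carriers and of amino acid synthesis enzymes.

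Promoters were searched because transcription of some of these carriers is known to be raised by ATF4. Sequences are shown for 4 members. Those of Slc7a11, Slc1a4 and Slc43a1 were picked because they held a match to a motif searched for. That of Slc7a1 was picked because Slc7a1 is the second member by size of difference. RefSeq windows of assembly GRCm38.p6, running from 250 bases before to 50 after a start site, were in the table used for 7 of the 10 members (9 windows). Slc7a5, Slc1a5 and Slc38a1 were not among them. Both strands were searched for TGATGNAAN, the composite element that ATF4 and C/EBP proteins can bind, and for CACGTG, the E-box that MYC can bind. Capitals mark matches, and every sequence runs 5′ to 3′ on the strand of its gene. The reference is that of C57BL/6J, not of BALB/c. The Slc7a11 stretch is chr3:50443614-50443713 (minus strand), that of Slc1a4 is chr11:20332704-20332733 (minus strand), that of Slc43a1 is chr2:84840223-84840322 (plus strand) and that of Slc7a1 is chr5:148399905-148400004 (minus strand).
Slc7a11: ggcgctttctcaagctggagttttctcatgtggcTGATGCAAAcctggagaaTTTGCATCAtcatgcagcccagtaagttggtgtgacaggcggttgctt
Slc1a4: cagcgtgcctcctgcGTTGCATCAtctcca
Slc43a1: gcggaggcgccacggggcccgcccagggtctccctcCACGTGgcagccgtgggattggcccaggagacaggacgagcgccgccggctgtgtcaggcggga
Slc7a1: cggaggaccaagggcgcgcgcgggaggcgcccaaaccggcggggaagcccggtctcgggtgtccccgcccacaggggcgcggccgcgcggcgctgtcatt

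The Slc7a11 promoter held the composite element in both orientations, from 66 to 58 and from 48 to 40 bases before the start site. Slc1a4 held a match that spans the start site, beginning 5 bases before it. The element was thus present in 2 of 7 members, or 2 of their 9 windows, and 3.95% of all 32851 windows in the table held it. The E-box was present in Slc43a1 alone (1 of the 9 windows), 64 bases before the start site, and 7.15% of all windows held it. No match to either motif lay in the windows of Slc7a1, Slc7a6, Slc3a2 or Slc38a2, which says only that these letters are not in those windows.

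The arrays differed in ways that touch every value below. The authors' intensities had medians of 78.3 (ND), 69.7 (HFD 1) and 67.4 (HFD 2), and the median log2 difference of all genes tested was -0.15. Of 14 T cell markers, 13 were on the array and had means above the median probe set, with a summed intensity of 128279 in ND against 106165 and 103455 in HFD. Of these 13, 11 read lower on both HFD arrays, among them Cd4 (911 in ND, 609 and 377 in HFD), Cd3e (4167 against 2558 and 2426) and the memory marker Cd44 (9761 against 5623 and 5700). Markers of other cells moved with the groups. The summed intensity of 12 macrophage and monocyte markers was 2650 in ND against 1005 and 1208 in HFD, that of 8 dendritic cell markers 4285 against 2420 and 2549, and that of 5 MHC class II genes 12724 against 7234 and 7193. The sum of 9 B cell markers ran the other way, 1414 against 3135 and 3349, but 5 markers read higher and 4 lower on both HFD arrays. Ms4a1 (56.8 in ND, 1612 and 1837 in HFD) and Fcer2a (31.6 against 524 and 644) made up the higher sum, and Cd22 read 939 against 605 and 504. The sums for 7 neutrophil markers (189 in ND, 611 and 692 in HFD), 2 CD8 genes (449 against 581 and 715, with Cd8a at 99.0 against 177 and 230) and 4 NK markers (557 against 711 and 805) were also lower in ND. Of the neutrophil markers, 4 read higher and 1 lower on both HFD arrays, and 3 had means above the median probe set. The sum of 5 erythroid markers was 122 against 94.6 and 91.3. Of these 5, 2 read higher and 3 lower on both HFD arrays, and 0 had means above the median probe set. H2-Ea, a class II gene that BALB/c mice express and C57BL/6 mice do not, read 11.5 on the array labelled ND and 536 and 602 on the HFD arrays. That reading goes against the strain label of the ND array. Every comparison rests on that array, so no value without it can be had. The part of these differences in the results was not tested, and diet cannot be told apart from anything else that set the lone ND sample apart. In RNA from bulk cells, more cells of a type and more RNA per cell cannot be told apart either.

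Values are the deposited linear intensities. Differences are on the scale of log2(intensity + 17.7), where the added offset equals the 25th percentile of the table, and a fold change is the ratio on that scale, which understates changes of dim probe sets. HFD means are given ± SD (n = 2), and ND has no error of its own. Of the 20 member probe sets, 14 read higher than ND on both HFD arrays, where 32.7% of all named probe sets did. Another 4 read lower on both, where 47.1% of named probe sets did, and 2 lay to either side of ND. The distance from ND exceeded the gap between the HFD arrays for 10 of the higher probe sets (21.9% of named probe sets) and for the 4 lower ones (32.1%). A 2-fold or larger difference in both HFD arrays was reached by 2 probe sets upward (3.98% of named probe sets) and by 0 downward (2.47%). Because the members were chosen on this contrast, nothing is read from these counts. Across the 10 genes, each at its brightest probe set, the median difference was 0.25. For the 9 of them with a mean above the median probe set it was 0.19. All genes tested were held to that same limit, and their median was -0.15.

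**Figure D1:**
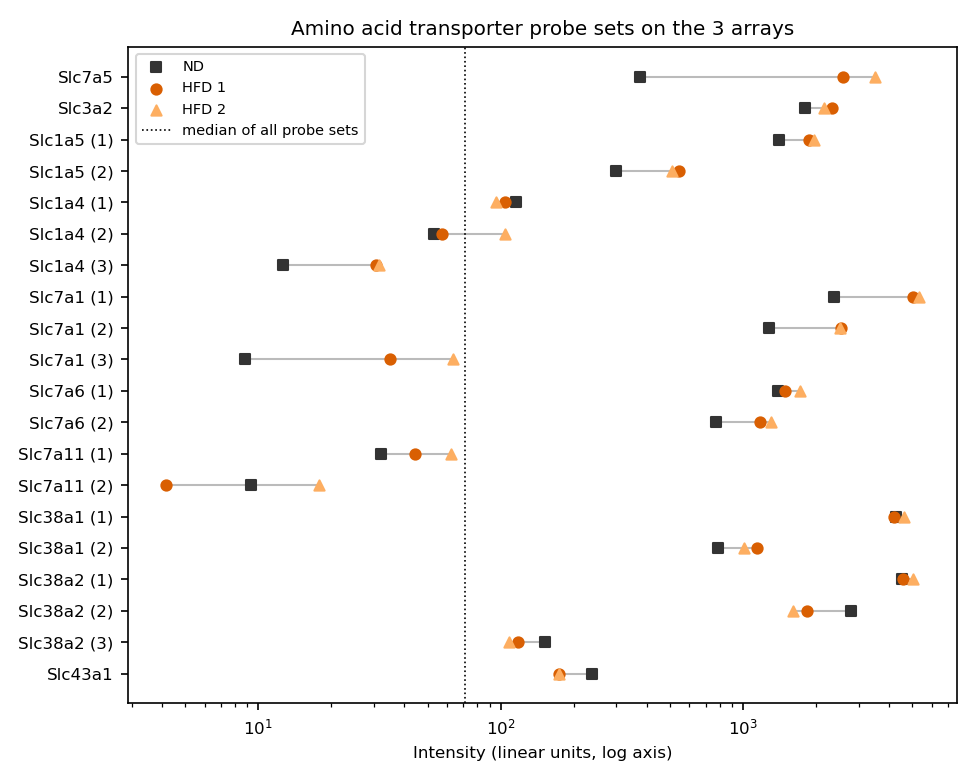
Deposited intensity (linear units on a log axis) of each of the 20 member probe sets on the ND array (squares) and the HFD arrays (circles, triangles). Probe sets of a gene are numbered from the brightest down, a grey line spans the 3 arrays, and the dotted line is the median probe set at 71.4. Slc7a5 shows the widest separation among probe sets above that line, from 374 in ND to 2584 and 3499 in HFD, while both Slc7a11 probe sets lie below it on every array.

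Slc7a5, the transport subunit of LAT1, stood out among the members. Its single probe set read 374 in ND, 2584 in HFD 1 and 3499 in HFD 2 (3042 ± 647). Both HFD arrays were far above ND, 6.64-fold and 8.98-fold, and the gap between them (log2 0.43) was small beside the mean difference of 2.95. On the log2 scale HFD 1 differed from ND by 2.73 and HFD 2 by 3.17. Slc3a2, the heavy chain that carries SLC7A5, SLC7A6 and SLC7A11 to the cell surface, read 1795 in ND and 2324 and 2160 in HFD. Both HFD values lay above ND, but by only 1.29-fold and 1.20-fold. The transport chain and its partner thus differed by 2.95 and 0.32 on the log2 scale between the HFD arrays and the ND array, each measured by a single probe set. Quantile normalization and centring of the arrays kept both upward.

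Slc7a1, the cationic amino acid carrier, was the second member by size of difference. Its brightest probe set read 2373 in ND and 5042 and 5337 in HFD (5190 ± 208), 2.12-fold and 2.24-fold higher. Its next probe set, annotated to the same sequence record, read 1278 in ND and 2541 and 2500 in HFD, 1.97-fold and 1.94-fold. These sit just inside and just outside a 2-fold limit, and centring the arrays put both past it. The dimmest probe set lay low, at 8.79 in ND and 35.0 and 63.3 in HFD. Its fold changes of 1.99 and 3.06 became 3.68 and 6.57 with an offset of 1, so its size depends on that choice. On all 3 probe sets both HFD values lay above ND.

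Slc7a6 (y+LAT2), which exchanges cationic for neutral amino acids, gave a smaller and less even picture. The brighter probe set read 1400 in ND and 1483 and 1719 in HFD, where the gap between the HFD arrays (log2 0.21) exceeded the distance of HFD 1 from ND (0.08). The other probe set read 771 in ND and 1173 and 1301 in HFD, 1.51-fold and 1.67-fold higher. The HFD arrays therefore lay above ND on both, by a mean of 0.19 and 0.67 on the log2 scale, although both are annotated to the same record.

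Slc7a11 (xCT), the cystine carrier whose promoter holds the paired elements shown above, was dim on every array. One probe set read 32.0 in ND and 44.5 and 62.1 in HFD, and the other 9.32 in ND and 4.16 and 17.7 in HFD. The HFD arrays fell to either side of ND on the second. Neither passed the filter of a mean above 71.4, and without detection calls such values cannot be told from background, so a difference in this carrier was not detectable here.

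**Figure D2:**
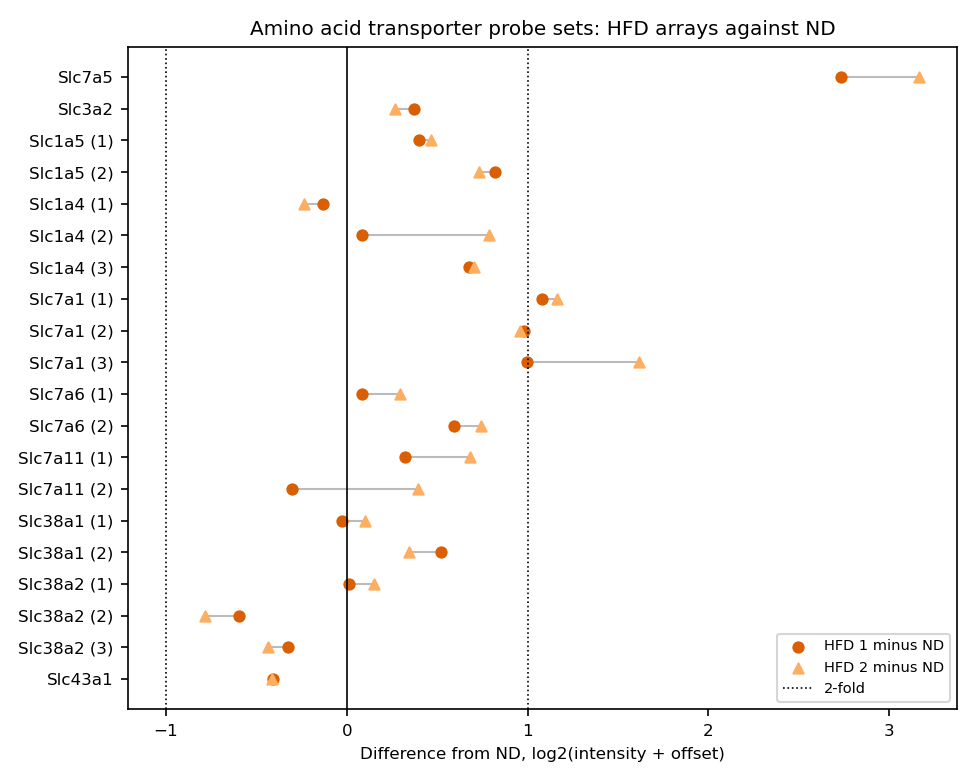
Difference of each HFD array from ND, in log2(intensity + offset), for the 20 member probe sets (circles HFD 1, triangles HFD 2, joined by a grey line whose length is the gap between the HFD arrays). The dotted lines mark 2-fold in each direction. Slc7a5 at 2.73 and 3.17 and the brightest Slc7a1 probe set at 1.08 and 1.16 lie past the right line on both arrays, and no probe set reaches the left line.

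Of the ASCT carriers of the SLC1 family, Slc1a5 read higher in HFD and Slc1a4 had no settled direction. Slc1a5, the glutamine carrier ASCT2, read 1411 in ND and 1866 and 1958 in HFD (1912 ± 65.0) on its brightest probe set, 1.32-fold and 1.38-fold higher. Its other probe set read 300 in ND and 544 and 508 in HFD, 1.77-fold and 1.66-fold higher. On both probe sets the HFD values were close together and above ND. Slc1a4 (ASCT1), which carries alanine, serine and cysteine, read 116 in ND and 104 and 95.6 in HFD on the brightest probe set, a little lower on both arrays. Its other probe sets read 53.0 in ND and 57.4 and 104 in HFD, and 12.6 in ND and 30.7 and 31.6 in HFD. These went upward, so averaging the Slc1a4 probe sets turned the difference from -0.18 to 0.31. All its values are near or below the median probe set.

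The SNAT carriers Slc38a1 and Slc38a2, which take up glutamine with sodium, differed between their own probe sets. For Slc38a1 the brightest probe set read 4287 in ND and 4215 and 4596 in HFD, so the HFD arrays lay on either side of ND. Its other probe set read 789 in ND and 1141 and 1007 in HFD, 1.44-fold and 1.27-fold higher. The brightest Slc38a2 probe set read 4526 in ND and 4561 and 5017 in HFD, within 0.15 of ND on the log2 scale. The other probe sets of Slc38a2 read lower in HFD, at 2786 in ND against 1839 and 1609 (a mean log2 difference of -0.69), and at 152 in ND against 118 and 108 (-0.38). These lower probe sets are annotated to the same sequence record. Under quantile normalization the brightest probe sets of Slc38a1 and Slc38a2 moved from 0.04 and 0.08 to -0.06 and -0.03, and averaging the probe sets put Slc38a2 at -0.33. Neither carrier therefore has a settled direction in these data.

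Slc43a1 (LAT3), which carries leucine and other branched-chain amino acids by facilitated diffusion without the CD98 chain, read lower in HFD. Its single probe set gave 237 in ND and 174 and 174 in HFD, a log2 difference of -0.41 with almost no gap between the HFD arrays. The difference stayed downward under each scaling and offset tried, from -0.24 with quantile normalization to -0.45 with an offset of 1. SLC7A5 and SLC43A1 both take up leucine, and their transcripts thus lay on opposite sides of ND.

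Of the 7 members with several probe sets, 3 (Slc1a5, Slc7a1 and Slc7a6) read higher on both HFD arrays with every probe set, and for 2 (Slc1a4 and Slc38a2) the mean differences took both signs. Within a gene the probe sets differed by 0.33 (Slc7a1) to 0.87 (Slc1a4) on the log2 scale. The median gap between the HFD arrays over the 20 probe sets was 0.13.

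The rest of the pathway was tested with limma on all 10341 genes past the filter, of which 20.5% were called higher and 29.2% lower in HFD at an adjusted p under 0.05 (Benjamini-Hochberg over those genes). The model takes its spread from the HFD arrays and assumes that the lone ND array varies like them. As that spread may be technical, the adjusted p values may not measure variation between mice. With 49.6% of genes called either way, counts in a list are given beside these shares. The lists were chosen with earlier results of these data known, so their shares are a description and no test of a list. From each list up to 4 called genes per direction are named, those with the largest value of the smaller difference over the HFD arrays. Sesn2, Atf4 and Glud1, which were not called, are named for their roles and were chosen after their values were seen.

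Of the 45 other amino acid transporters on the array, 20 passed the filter. Of these 4 (20%, beside 20.5% of all genes) rose and 8 (40%, beside 29.2%) fell, with a list median of -0.24, and under quantile normalization 4 rose and 4 fell. Slc43a2 (LAT4), the closest relative of Slc43a1, read 779 in ND and 473 and 435 in HFD and fell 1.69-fold (adjusted p = 0.00166), with its other probe set at -0.44 on the log2 scale. The SLC36 family carriers Slc36a1 and Slc36a4 fell 1.67-fold (666 to 393 ± 24.8) and 1.47-fold (814 to 550 ± 18.4). Slc38a9, the lysosomal arginine sensor, and Slc66a1, a lysosomal exporter of cationic amino acids, also fell, by 0.51 and 0.54 on the log2 scale (adjusted p = 0.0224 and 0.0493). They were named for their place on the lysosome after their values were seen. Both calls ended under quantile normalization (adjusted p = 0.0759 and 0.163) and with no filter (adjusted p = 0.0911 and 0.177), among other settings. Other lysosomal carriers of the list, Ctns, Slc15a4 and Slc38a7, were not called, with log2 differences of -0.50, -0.01 and -0.33. Slc7a10 fell 1.63-fold, a call that ended under quantile normalization (adjusted p = 0.105) and with no filter (adjusted p = 0.142). Among those that rose, Slc16a10 (TAT1), an aromatic amino acid carrier, read 231 in ND and 413 and 477 in HFD, 1.86-fold higher (adjusted p = 0.00152). The taurine carrier Slc6a6 rose 1.30-fold, the glycine carrier Slc6a9 1.85-fold and the cationic carrier Slc7a3 2.34-fold, from 40.3 to 118 ± 9.69. Slc7a3 was under the filter in ND and passed it through the HFD arrays alone, so its call rests on a filter that its own difference decided. Calls ended for Slc7a3 with no filter (adjusted p = 0.0746), for Slc6a9 with no filter (0.0943) or averaged probe sets (adjusted p = 0.0957), and for Slc6a6 without a variance trend (adjusted p = 0.0763).

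The genes that report amino acid supply to mTORC1 were called at close to the rate of all genes. Of 28 tested, 6 (21.4%) rose and 8 (28.6%) fell, with a list median of 0.04. Of the Sestrins, which can hold mTORC1 off, Sesn3 fell 1.70-fold (5763 to 3389 ± 172, adjusted p = 8.42e-05) and Sesn1 1.64-fold (3196 to 1943 ± 124). Sesn2, at 151 in ND and 177 ± 18.1 in HFD, was not called (adjusted p = 0.524). The arginine sensor Castor1 fell 1.66-fold (883 to 526 ± 44.0) and Bmt2, the S-adenosylmethionine sensor SAMTOR, fell 2.02-fold (2384 to 1170 ± 4.89). Lars, the leucyl-tRNA synthetase, rose 2.28-fold (1661 to 3818 ± 227, adjusted p = 3.92e-06), and Fnip2, a partner of folliculin, rose 2.70-fold (87.7 to 268 ± 30.5). Seh1l and Mios, of the GATOR2 complex, rose 2.29-fold and 1.52-fold. Other probe sets of Seh1l ran from -0.33 to 1.44 on the log2 scale.

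In the amino acid starvation response list, 13 of 23 genes tested (56.5%, beside 20.5% of all genes) rose and 3 (13%, beside 29.2%) fell, with a list median of 0.71 beside -0.15 over all genes. Of the 13, 3 (Cth, Gpt2 and Chac1) read under 71.4 in ND and passed the filter through the HFD arrays, where they were high, so the filter favoured them. With no filter 11 of the 25 list genes on the array were called higher, beside 1663 of all 18193 named genes. Asns, which makes asparagine, read 162 in ND and 1213 and 1333 in HFD and rose 7.19-fold (adjusted p = 2.64e-08). Psat1 of serine synthesis rose 3.93-fold (1380 to 5483 ± 293) and Shmt2, which splits serine into glycine and a one-carbon unit in mitochondria, 4.62-fold (515 to 2442 ± 32.2). Other probe sets of Shmt2 ran from 0.90 to 1.96 on the log2 scale against 2.21. Cth, which makes cysteine from cystathionine, read 0.67 in ND, under the offset, and 157 and 167 in HFD, so its 9.79-fold rise depends on the offset. The genes that fell were Ppp1r15a (2.02-fold), whose product restores translation after stress, the transcription factor gene Cebpb (1.96-fold) and the mTORC1 inhibitor gene Ddit4 (1.28-fold). The Ppp1r15a call ended when low values were kept (adjusted p = 0.0533) or the variance trend was dropped (adjusted p = 0.0577), and the latter also ended that of Ddit4 (adjusted p = 0.0901). Atf4 itself read 5678 in ND and 6515 and 6794 in HFD (log2 0.23 ± 0.09 SE, adjusted p = 0.0606).

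Of 22 enzymes tested that use the imported amino acids, 10 (45.5%, beside 20.5% of all genes) rose and 2 (9.09%, beside 29.2%) fell, with a list median of 0.02. Bcat1, which transaminates leucine, isoleucine and valine in the cytosol, rose 15.8-fold (104 to 1915 ± 138, adjusted p = 2.15e-09), with its other probe sets at 1.13 to 2.68 on the log2 scale against 3.98. Shmt1, the cytosolic serine hydroxymethyltransferase, rose 12.4-fold (151 to 2071 ± 117), Ahcy of the methionine cycle 3.36-fold (2036 to 6886 ± 176) and Got1, the cytosolic aspartate aminotransferase, 2.54-fold (819 to 2114 ± 158). Other probe sets of Shmt1 ran from 1.64 to 4.43 on the log2 scale against 3.63. Mat2b, a regulatory subunit of methionine adenosyltransferase, fell 1.39-fold, a call that ended without a variance trend (adjusted p = 0.0531). Gpt fell 1.52-fold, a call that ended under quantile normalization (adjusted p = 0.104), with no filter and with averaged probe sets. Glud1, glutamate dehydrogenase, read 4217 in ND and 4208 and 4213 in HFD.

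**Figure D3:**
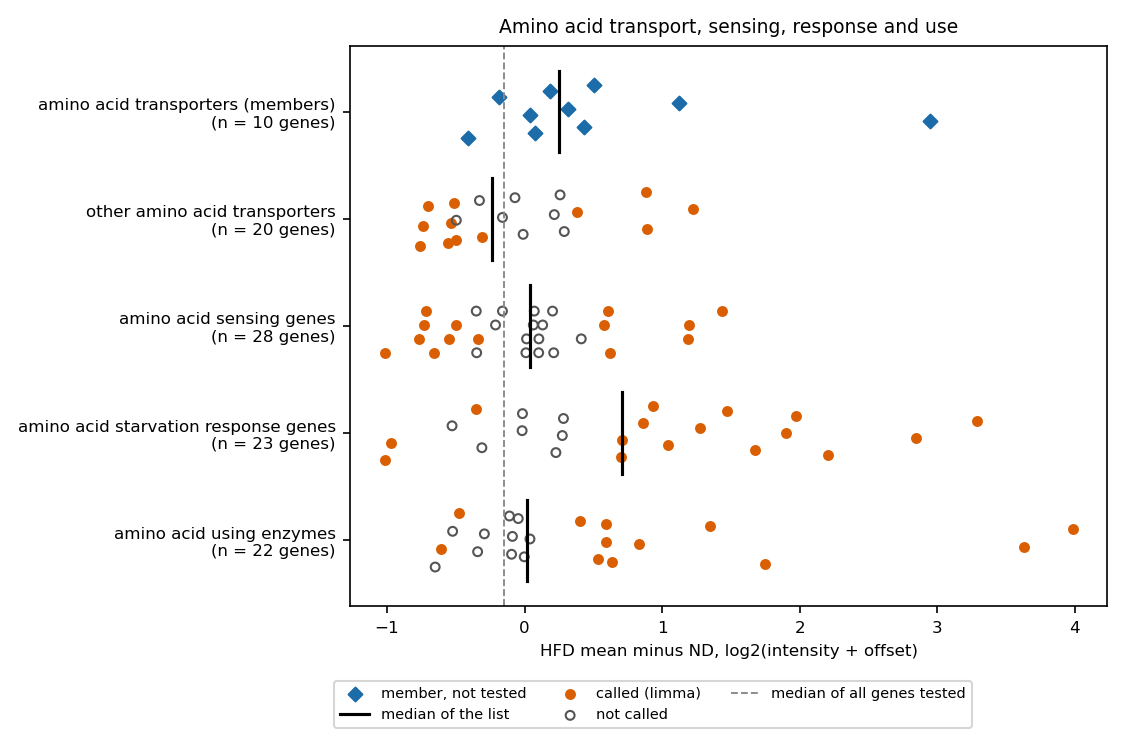
Difference of the HFD mean from ND, in log2(intensity + offset), for the 10 members at their brightest probe set (diamonds, not tested) and for the genes past the filter of 4 lists (filled, called by limma at an adjusted p under 0.05; open, not called). Bars are list medians and the dashed line is the median of all genes tested at -0.15. The members include Slc7a11, which did not pass the filter. The starvation response list has the highest median, 0.71, and the other transporters the lowest, -0.24.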

How the data were processed

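The values are the linear intensity per probe set that the authors deposited for 3 arrays. GCOS, Affymetrix's array software, is named in the submitters' processing notes. Its version, the algorithm and any background correction were not given by the sources used here. Judged by its values, every array was scaled to a mean of 500.0 after trimming 2% at each end. Of 45101 probe sets, 64 controls were set apart, and 34945 of the rest had 1 gene symbol in the platform annotation, 932 several and 9160 none. Only those with 1 symbol were named. Through Entrez identifiers 34741 matched RefSeq (GRCm38.p6), with 0 symbols changed.

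Values were transformed as log2(intensity + 17.7). Members kept every probe set, of which 16 of 20 passed the filter used for testing, a mean over the arrays above 71.4. Other genes were read from their brightest probe set, leaving 10341 genes. The diets were compared with limma 3.58.1 in R 4.3.3 (lmFit, eBayes with a trend, two-sided, 1 residual and 11.69 prior degrees of freedom). The fit was run on simulated data in which 200 of the 10341 genes were changed and the ND array varied like the HFD arrays. It called 88% of genes changed by 1 on the log2 scale, 97% of those changed by 2 and 6 unchanged genes. Since the simulation builds in the assumption about the lone ND array, it cannot check it. The real data also have far more genes called. From each of the 4 other lists, up to 4 called genes per direction were named, those with the largest smaller difference over the HFD arrays. The members and lists were chosen with earlier results of these data known. Alternatives covered normalization, offset, filter, merging of probe sets, variance model and leaving out each HFD array. The number of arrays limits the precision. Tables and figures were made in Python 3.11.15 with numpy 2.4.6, pandas 2.3.3 and matplotlib 3.10.9.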

Additional observations from a re-analysis of the deposited data

How the results depend on the processing

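Counts over all genes and lists stayed within 1.5 times the reported ones under the alternatives tried, apart from those given here. With no filter on low values, 1922 genes were called lower instead of 3015, and 2 other transporters were called higher and 5 lower instead of 4 and 8. With the filter at the 75th percentile of probe sets, 1 other transporter was called higher and 5 lower. Quantile normalization left 4 other transporters called lower. Of the enzymes that use amino acids, 1 instead of 2 was called lower under quantile normalization, the stricter filter and averaged probe sets. The number of member probe sets at least 2-fold higher in both HFD arrays was 4 instead of 2 with arrays centred on their median and with an offset of 1, and 2 or 3 with a single HFD array. The median difference of the 10 members was 0.32 with centred arrays and 0.32 with averaged probe sets, against 0.25. Of 47 values of single members under other normalizations, offsets or averaging of probe sets, 33 moved by less than 1 SD of the HFD arrays, and 4 changed sign, those of Slc38a1 and Slc38a2 under quantile normalization and of Slc1a4 and Slc38a2 with averaged probe sets. Without HFD 2, Slc38a1 also changed sign (-0.02). With 2 HFD arrays, leaving out either must move a mean by less than 1 SD, so those values say nothing about stability. The calls that leaving out an HFD array would change cannot be given, since 1 array against 1 has no residual degrees of freedom. No paired analysis was possible because the ND group holds 1 array and its label carries no replicate number. Detection calls were not used, so dim values, such as those of Slc7a11, cannot be told from background.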
